A study of Mus musculus with 4 samples.

Results

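Neat1 and Malat1 are neighbouring genes for abundant long noncoding RNAs that stay in the nucleus. Their stretch of mouse chromosome 19 was examined for peaks of 3 chromatin-associated proteins. ChIP-seq lists of peaks from bone marrow derived macrophages, primary cells grown from marrow with L929 conditioned medium, were used. A peak belonged to the stretch when it overlapped chr19:5745000-5896000 (mm9) by at least 1 bp, and 56 of the 59420 peaks in the 3 lists did so. These were 16 of 17662 BAP1 peaks, 28 of 31421 HCF1 peaks and 12 of 10337 OGT peaks. The BAP1 library was an anti-FLAG precipitate from C57BL/6 mice with a 3X Flag tag knocked into BAP1, while the HCF1, OGT and input libraries came from C57BL/6 mice with wild-type BAP1. No treatment was given in any group. The deposited BAP1 list is named for wild-type macrophages, and the source field names marrow progenitors; the knock-in genotype and macrophage cell type of the labels were followed. Each protein had 1 library, so no value below carries a replicate error. The labels and files give no animal age, pooling or read totals. No peak list of the input, and no anti-FLAG precipitate from untagged cells, was analysed here.

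The genes were chosen by position, with the deposited peaks already known to include a very wide one there, so counts, widths and scores in the stretch are a description and were not tested. The gene limits used were Malat1 near chr19:5795690-5802670 (6981 bp) and Neat1 near chr19:5824710-5845480 (20771 bp), with 22039 bp between them. They are approximate, were not read from an mm9 annotation, and exons were not assigned. Both genes are transcribed from the minus strand, so their 5′ ends lie at the higher coordinate. In RefSeq's gene order for GRCm38.p6, the genes that follow Neat1 toward higher coordinates are Frmd8, Slc25a45 and Tigd3. That order was used for names only, and no peak was assigned to these neighbours.

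Neat1 RNA is the scaffold of paraspeckles, nuclear bodies that assemble around the transcript, and its long isoform is needed for them to form. Malat1, also listed as Neat2, accumulates in nuclear speckles, which are rich in splicing factors. Both RNAs are made at high rates in many cell types. BAP1 is a nuclear deubiquitinase that acts on histone H2A. HCF1 is a cofactor that links sequence-specific factors to chromatin modifiers and binds BAP1, and OGT, the enzyme that adds O-GlcNAc to proteins, also cleaves and binds HCF1.

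All 3 proteins had a peak spanning the 5′ end of Malat1. The promoter sequences used held Malat1 and no entry for Neat1, so only the sequence around the Malat1 start is shown. The peaks of the 3 lists end together about 2 kb upstream of that start. The OGT peak there has a deposited score of 93.70, rank 4669 of its list, and drops out when scores below 100 are left out. The 300 bases are RefSeq's for GRCm38.p6, minus strand, from 250 bases before the annotated start to 50 after it, written 5′ to 3′. Capitals mark matches to TGACG (the repeated element of a cyclic AMP response element), GAGGAA (the core bound by PU.1) and CCGGAA (the core bound by ETS factors) on either strand.

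Malat1: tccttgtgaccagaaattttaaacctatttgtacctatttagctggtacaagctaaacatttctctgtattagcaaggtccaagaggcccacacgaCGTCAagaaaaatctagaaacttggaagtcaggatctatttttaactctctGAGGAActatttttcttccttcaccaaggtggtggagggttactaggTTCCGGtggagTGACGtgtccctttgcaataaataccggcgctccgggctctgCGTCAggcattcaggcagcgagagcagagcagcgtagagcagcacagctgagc

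TGACG occurred 3 times in this window, on the strand shown at bases 206 to 210 and on the opposite strand at bases 97 to 101 and 248 to 252, counted from the first base shown. At least 1 match was present in 20.8% of the 32851 RefSeq promoters of the same length, and at least 3 in 1.03%. GAGGAA and CCGGAA occurred once each, as they did at least once in 28.3% and 14.9% of promoters. Other letters searched on both strands were not in this window: CCAAT (the CCAAT box, in 37.4% of promoters), GGGCGG (the GC box, 35.7%), TGANTCA (bound by AP-1, 7.81%), TATAAA (the TATA box, 13.6%) and ACTACA (part of the site of ZNF143 and THAP11, 10.3%). None of the motifs searched contains another. The window had a GC content of 47.0% and 10 CG dinucleotides, where the medians over all promoters were 52.7% and 7. These matches are letters in a promoter sequence and not measured sites, and the peaks are far wider than the window.

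At Neat1, each list had a single very wide peak that ran across the 5′ end of the gene. The BAP1 peak covered chr19:5834187-5852026, 17840 bp, with a deposited score of 2631.66. The score is the authors' number per peak, whose definition neither labels nor files state, and it was ranked only within a list. This peak was the sixth in score and the second in width of the BAP1 list. The HCF1 peak covered chr19:5836388-5852204, 15817 bp, at a score of 3100.00, which 44 HCF1 peaks share below 6 higher ones. It was the third widest HCF1 peak. The OGT peak covered chr19:5839200-5852280, 13081 bp, at a score of 1093.41. It ranked 52 in score and was the widest peak of the whole OGT list. In percentiles of the score, where the highest peak of a list stands at 100, these peaks were at 99.97 (BAP1), 99.91 (HCF1) and 99.51 (OGT).

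The 3 peaks reached nearly the same point upstream of Neat1 and different points inside it. Upstream of the 5′ end they extended 6546 bp (BAP1), 6724 bp (HCF1) and 6800 bp (OGT), so the upper ends lay within 254 bp. Of the 357 merged regions with all 3 proteins that were at least 5 kb wide, 13.2% had upper ends at least this close. Inside the gene they extended 11293 bp for BAP1, 9092 bp for HCF1 and 6280 bp for OGT from the 5′ end. Their centres stood 2374 bp inside the gene for BAP1, 1184 bp inside it for HCF1 and 260 bp upstream of the start for OGT.

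**Figure D1:**
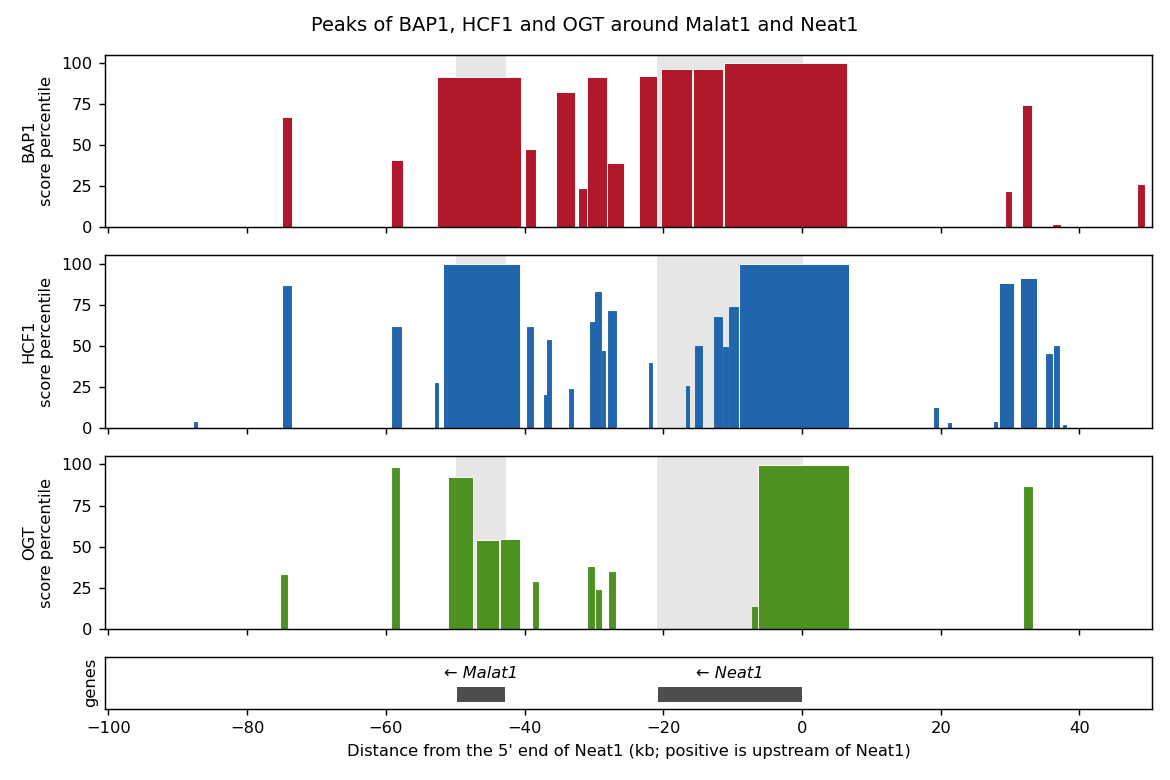
Peaks of the BAP1, HCF1 and OGT lists as boxes by distance from the 5′ end of Neat1 in kb, with the within-list score percentile as height; arrows give the direction of transcription and grey bands the genes. The widest boxes of each list run over the 5′ end of Neat1 and end together 6546 to 6800 bp upstream of it.

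Further into Neat1 the lists separated. BAP1 continued to the 3′ part of the gene with peaks at chr19:5829761-5834089 (4329 bp, score 519.80, rank 618) and chr19:5825113-5829622 (4510 bp, score 489.32, rank 715). Both were among the widest 250 BAP1 peaks, at ranks 248 and 221. HCF1 had 5 short peaks over the rest of the gene, each between 424 and 1316 bp wide. From the 5′ to the 3′ side they were chr19:5835002-5836317 (score 225.97, rank 8309), chr19:5834033-5834851 (103.25, rank 15938), chr19:5832811-5833941 (178.91, rank 10133), chr19:5830123-5831097 (104.86, rank 15724) and chr19:5828813-5829236 (65.09, rank 23374). OGT had 1 more peak in the gene, next to its widest one, at chr19:5838312-5839109 (798 bp, score 55.46, rank 8945), and none closer to the 3′ end.

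The share of the gene inside peaks followed this order. Peaks covered 96.9% of Neat1 for BAP1, 66.2% for HCF1 and 34.1% for OGT. When the gene was divided into 4 equal lengths from the 5′ end, all 3 proteins covered 100% of the first. BAP1 then covered 100%, 98.1% and 89.6% of the following lengths. HCF1 covered 98.7%, 58.1% and 8.16% of them, and OGT 36.3%, 0% and 0%. HCF1 covered less of the third and last lengths than BAP1. With the BAP1 and HCF1 lists shortened to their 10337 highest scores, the length of the OGT list, BAP1 kept its values. HCF1 then covered 23.6% of the third length and 0% of the last. The OGT list was not shortened, so its values could not change. At equal list lengths BAP1 covered more than HCF1 in the third and last lengths, while HCF1 and OGT did not differ in the last. Shortening a list can only lower its cover. HCF1 was already below BAP1 in these lengths, and the BAP1 peaks over the gene, at ranks 6, 618 and 715, all stay in. This order of BAP1 and HCF1 was therefore fixed in advance and does not test the part of list length. Read depth and enrichment of each library are unknown, and BAP1 alone was precipitated by its Flag tag, from knock-in cells. The median peak of the whole list was also wider for BAP1, at 1243 bp, than for HCF1 (731 bp) and OGT (912 bp). The part of depth, enrichment, the tag, peak width and list length in this order of cover was not tested. A part of the gene with no called peak is not shown to lack the protein.

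**Figure D2:**
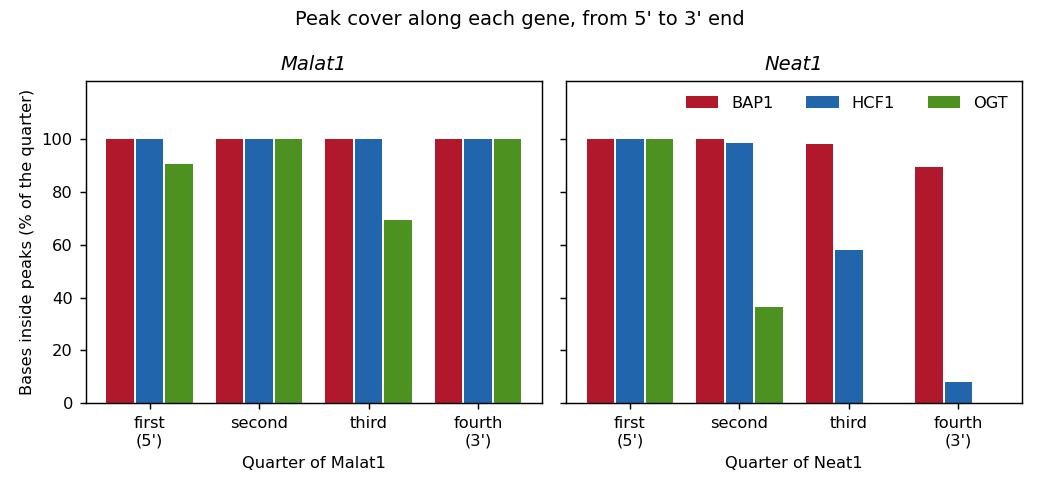
Percent of bases inside peaks in 4 equal lengths of Malat1 (left) and Neat1 (right), from the 5′ to the 3′ end, 1 bar per protein. Along Neat1 the BAP1 bars stay at 89.6% or more, the HCF1 bars fall to 8.16% and the OGT bars to 0%; along Malat1 no bar is under 69.4%.

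Just beyond the 3′ end of Neat1, BAP1 had a high-ranking peak close to the gene, chr19:5821991-5824632 (2642 bp, score 376.80, rank 1369), and farther off a low-ranking one, chr19:5817433-5819865 (2433 bp, score 91.18, rank 10773). HCF1 had chr19:5823372-5823814 (443 bp, score 83.37, rank 18903). OGT had no peak within 5 kb of the 3′ end.

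Malat1 lay wholly inside peaks of BAP1 and HCF1. The HCF1 peak, chr19:5793673-5804894, was 11222 bp wide with a score of 2360.29, rank 109 and percentile 99.66. The BAP1 peak, chr19:5792805-5804898, was 12094 bp wide, the sixth widest of its list, but its score of 356.38 gave only rank 1535 and percentile 91.31. OGT covered 90.0% of the gene with 3 separate peaks, and 33.4% with 1 peak when scores below 100 were left out. These were chr19:5794482-5798018 over the 3′ part (3537 bp, score 307.52, rank 784), chr19:5798554-5801759 in the middle (3206 bp, score 92.08, rank 4766) and chr19:5801925-5804839 over the 5′ end (2915 bp, score 93.70, rank 4669). The highest OGT score was thus on the 3′ side of Malat1, whereas at Neat1 it was at the 5′ end.

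The peaks around Malat1 also ended together upstream of the gene. They extended 2228 bp beyond the 5′ end for BAP1, 2224 bp for HCF1 and 2169 bp for OGT, within 59 bp of each other. On the 3′ side the outermost starts differed by 1940 bp, with BAP1 beginning 2885 bp, HCF1 3148 bp and OGT 1208 bp beyond the gene. The HCF1 start belongs to a separate short peak, chr19:5792542-5792956 (score 66.76, rank 22830). Of the 357 merged regions with all 3 proteins that were at least 5 kb wide, 2.52% had the ends of the 3 lists within 59 bp at one end or the other, and 25.5% within the 254 bp seen at Neat1. The median spread over those regions was 922 bp at the upper and 1022 bp at the lower end. The lower ends spread no more than the 1940 bp of Malat1 in 71.7% of them. They spread no more than the 8551 bp of the Neat1 region, counting its outermost peaks, in 99.4%. At Malat1 the upper OGT end belongs to a peak scoring 93.70. With peaks below a score of 100 left out, the OGT end moved and the spread there became 6880 bp, while at Neat1 it remained 254 bp. The comparison of ends and the division of the genes into equal lengths were chosen after the peaks were seen.

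Peaks continued upstream of Malat1, toward Neat1. Within 5 kb of the Malat1 5′ end lay BAP1 chr19:5805659-5807022 (1364 bp, score 105.85, rank 9375), HCF1 chr19:5805895-5806684 (790 bp, score 143.06, rank 12164) and OGT chr19:5806649-5807393 (745 bp, score 64.66, rank 7375). All 3 scores were below percentile 62 of their list. Across the whole 22039 bp between the genes, BAP1 covered 70.4% with 7 peaks, HCF1 37.2% with 10 and OGT 25.2% with 5, counting those that reach in from Malat1. The highest HCF1 peak that lay wholly between the genes scored 345.33 (rank 5430) at chr19:5815574-5816542, under the BAP1 peak chr19:5814434-5817363 of score 356.61 (rank 1533).

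Peaks over and between the genes were closely packed. BAP1 peaks no more than 1 kb apart joined into 3 blocks, of 14218, 9909 and 30036 bp, that reached from chr19:5792805 to chr19:5852026. The last of these, chr19:5821991-5852026, held 4 peaks over 97.6% of its length and was the longest of 16340 such BAP1 blocks. Joined in the same way, the longest block here was 19394 bp for HCF1, rank 15 of 23930, and 13969 bp for OGT, rank 3 of 9067. Of the gaps between neighbouring peaks in the stretch, 7 of 15 were 1 kb or shorter for BAP1, 14 of 27 for HCF1 and 4 of 11 for OGT. The corresponding shares over whole lists were 7.50%, 23.9% and 12.3%.

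**Figure D3:**
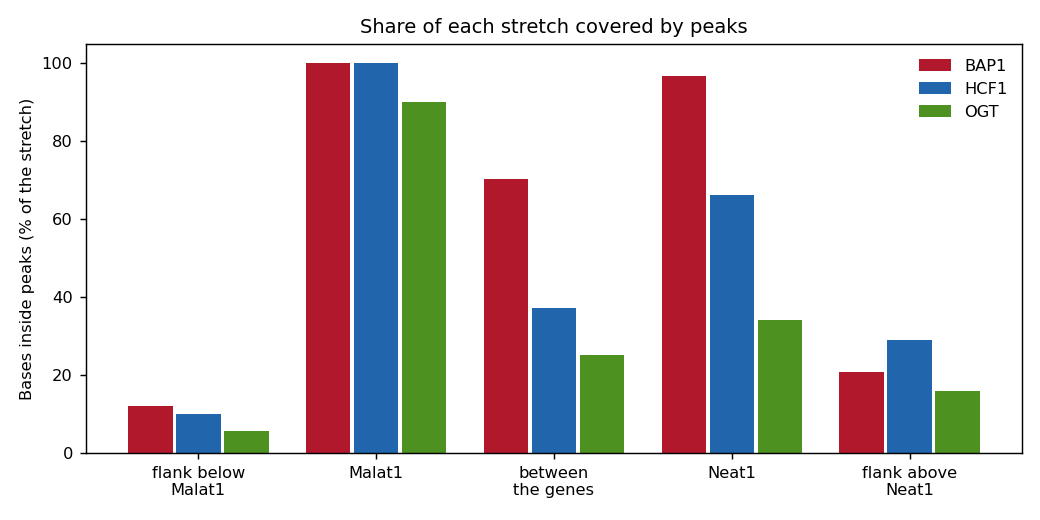
Percent of bases inside peaks in the flank below Malat1, Malat1, the stretch between the genes, Neat1 and the flank above Neat1, 1 bar per protein. BAP1 has the highest bar between the genes (70.4%) and over Neat1 (96.9%), and shares 100% with HCF1 over Malat1, where the OGT bar of 90.0% becomes 33.4% without scores below 100.

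In total, peaks covered 39.4% of the 151001 bp for BAP1, 32.3% for HCF1 and 19.8% for OGT. Between the first and last peak of chromosome 19 the same shares were 1.83%, 2.36% and 0.821%. The order of BAP1 and HCF1 is reversed between the stretch and the chromosome. All 3 proteins together covered 18.7% of the stretch and 0.517% of the chromosome. By number of peak centres, 0.337% of the 7418 windows of 151 kb with any peak held at least as many BAP1 peaks as this one, 0.297% at least as many HCF1 peaks and 0.593% at least as many OGT peaks, this window included. The median window held 2 BAP1, 3 HCF1 and 1 OGT peak centres. Windows were laid from the lower limit of the stretch on chromosome 19 and from the chromosome start elsewhere. Groups of peaks elsewhere can therefore be divided by a window border, while the peaks of this stretch were kept whole, so the small shares are favoured by the placement.

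The flanks held smaller peaks. Below Malat1 the highest OGT peak that touches neither gene was chr19:5786399-5787344 (946 bp, score 541.04, rank 238). It lay on a BAP1 peak of score 94.53 and an HCF1 peak of 144.42, and in percentiles OGT stood at 97.7 against 41.0 for BAP1 and 61.6 for HCF1. OGT led both other percentiles by 30 or more in this 1 of the 8 regions with all 3 proteins here, and in 1.93% of such regions in the series. The highest BAP1 and HCF1 peaks of that flank off the genes were chr19:5770456-5772016 (score 164.23, rank 5803) and chr19:5770730-5771761 (score 427.78, rank 4260), which overlap each other and an OGT peak of score 68.06. Above Neat1, the highest peaks off the gene overlapped one another: BAP1 chr19:5877184-5878705 (score 197.97, rank 4536), HCF1 chr19:5876977-5879407 (score 582.41, rank 2808) and OGT chr19:5877452-5878693 (score 217.15, rank 1425). The other flank peaks scored between 50.77 and 94.53 for BAP1 and between 50.83 and 474.22 for HCF1.

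The limits of the stretch cut through no peak. The outermost peaks inside were the HCF1 peak 12896 bp from the lower limit, with a score of 51.68, and the BAP1 peak 1214 bp from the upper limit, with a score of 72.66. The nearest peaks outside were a BAP1 peak 2641 bp below, with a score of 71.65, and an HCF1 peak 6299 bp above, with a score of 51.96.

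Few peaks of the series are as wide as those at the 2 genes. At least 5 kb was reached by 2 of the 16 BAP1 peaks, 2 of the 28 HCF1 peaks and 1 of the 12 OGT peaks of the stretch, and by 0.855%, 0.659% and 0.474% of the whole lists. Among the 151 BAP1 peaks of that width, the one over Neat1 ranked 4 in score and the one over Malat1 ranked 128, with a median score of 808. Among the 207 such HCF1 peaks the ranks were 4, within the tie at 3100.00, for Neat1 and 74 for Malat1, with a median of 1935. The OGT peak over Neat1 ranked 11 of 49, with a median of 594. In the BAP1 list, Malat1 was thus wide but low in score for its width, and Neat1 was high in both.

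**Figure D4:**
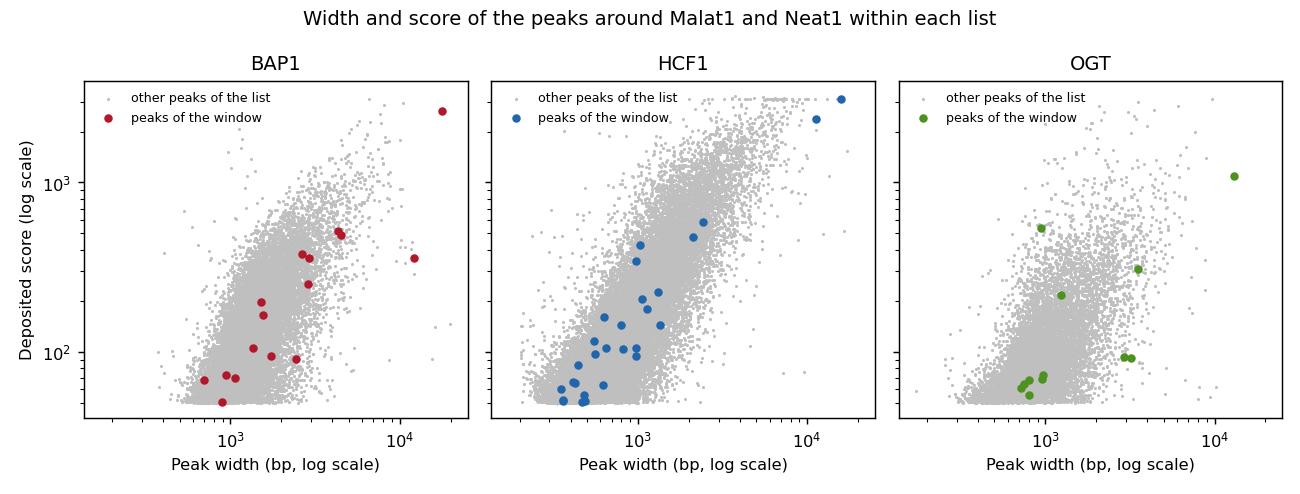
Peak width in bp against the deposited score, both on log scales, for every peak of the BAP1, HCF1 and OGT lists (grey) and the peaks of the stretch (coloured). The coloured point farthest to the right in each panel is the peak over the 5′ end of Neat1, and the BAP1 peak over Malat1 (12094 bp, score 356.38) ranks 128 in score among the 151 of at least 5 kb.

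The median peak of the stretch stood above the middle of its list in score for BAP1, but not for HCF1 or OGT. The median percentile was 70.7 for the 16 BAP1 peaks, 50 for the 28 HCF1 peaks and 45.9 for the 12 OGT peaks, against 50 in a whole list. With a score of at least 100, and when ranked by width, BAP1 stayed above 50 (84.5 and 83.7) and HCF1 was below it (41.5 and 48.5). OGT did not keep its place, at 88.1 on 4 peaks and at 54.0. Scores ran from 50.77 to 2631.66 for BAP1, from 50.83 to 3100.00 for HCF1 and from 55.46 to 1093.41 for OGT. The top of each range is the peak at the 5′ end of Neat1. The widths had medians of 2088 bp for BAP1, 720 bp for HCF1 and 960 bp for OGT, compared with 1243, 731 and 912 bp in the lists.

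Overlap was high for OGT peaks. All 12 OGT peaks were overlapped by BAP1 and by HCF1, where 66.3% and 82.1% of the whole OGT list are. With lists of equal length, 10 of the 12 were overlapped by BAP1 and 9 by HCF1. With full lists, HCF1 overlapped 14 of the 16 BAP1 peaks (74.7% of the list) and OGT 8 of them (35.2%). BAP1 overlapped 20 of the 28 HCF1 peaks (47.6% of the list) and OGT 9 of them (26.6%). Wide peaks have more room to be overlapped, and the part of width in these counts was not tested. Centres within 250 bp were found in 3 of the 12 overlapping pairs of OGT and BAP1. They were found in 5 of the 12 of OGT and HCF1 and 6 of the 21 of BAP1 and HCF1. Over the whole lists 51.2%, 49.9% and 57.7% of such pairs had centres that close. The centres of overlapping peaks were a median of 647 bp apart where BAP1 met HCF1, 595 bp where OGT met HCF1 and 758 bp where OGT met BAP1. The medians over the whole lists were 195, 251 and 242 bp. Counted by bases, 97.7% of the OGT bases here were also under BAP1 and 95.0% under HCF1, compared with 64.1% and 78.3% in the assembled chromosomes.

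The 56 peaks merged into 23 regions, of which 8 held all 3 proteins, against 16.5% of the 34840 regions of the series. The 8 became 3 with centres within 250 bp, reciprocal overlap of 50%, peaks trimmed to 200 bp or a score of at least 100, and 5 with lists of equal length. No share over the series is given for these settings, so the drop cannot be set against it. The region at Neat1, chr19:5829761-5852280, was 22520 bp wide and the widest of all 5741 regions with 3 proteins. The region at Malat1, chr19:5792542-5804898, was 12357 bp wide and ranked 11. Of the others, 5 held BAP1 with HCF1, 8 held HCF1 alone and 2 held BAP1 alone, combinations that make up 20.2%, 41.3% and 11.9% of regions in the series. No region in the stretch held OGT without both other proteins, and in the series 0.870% held OGT with BAP1 alone, 5.07% OGT with HCF1 alone and 4.16% OGT by itself.

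Overlapping peaks could stand at very different ranks of their lists, among them BAP1 and HCF1 peaks toward the 3′ end of Neat1. The BAP1 peak over the last part of the gene stood at percentile 95.96, and the only HCF1 peak on it at 25.59. The BAP1 peak just beyond the 3′ end stood at 92.25 and its HCF1 peak at 39.84. Of the 6 BAP1 peaks of the stretch at or above percentile 90, all of which HCF1 overlapped, these 2 had no HCF1 peak at or above percentile 50. The same held for 1.84% of the 1738 such BAP1 peaks in the series. The opposite order was found above Neat1 at chr19:5873914-5876031, where HCF1 stood at 88.1 and BAP1 at 21.7. The limits of 90, 50 and 30 percentiles were set after the values were seen.

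**Figure D5:**
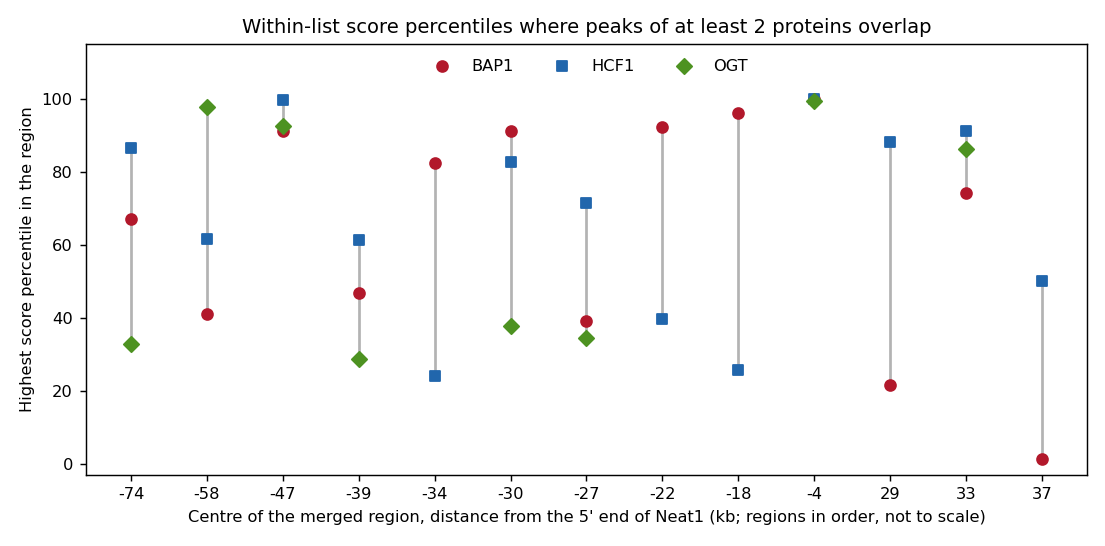
Highest within-list score percentile of each protein in the 13 merged regions of the stretch with peaks of at least 2 proteins, in order along the chromosome; labels give the distance of the region's centre from the 5′ end of Neat1 in kb. All 3 proteins stand at or above 99.5 in the region at the 5′ end of Neat1, and BAP1 is far above HCF1 at and just beyond the 3′ end of that gene.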

How the data were processed

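Per the labels' protocols, ChIP libraries were gel-selected, amplified by PCR and read on a Genome Analyzer II. GSNAP, MACS 1.4 and mm9 were used, per the submitters' processing notes, with settings not stated there. For each ChIP library the authors deposited peaks with 1 score per peak; the lowest scores were 50.01 (BAP1), 50.00 (HCF1) and 50.00 (OGT). Read depth is unknown, so no interval is given. Starts were read as counted from 0 and are printed counted from 1. Overlaps, merged regions (at least 1 shared bp), percentiles (100 times rank over list length, ties at their mean rank) and covered bases were computed with Python 3.11.15 and numpy 2.4.6. Overlaps, the number of merged regions and the joining of close peaks were checked on made-up intervals with known answers. Percentiles and covered bases were not checked in this way. Peaks over or within 5 kb of either gene, and the highest of each list per flank, were named by rule. Genes, window and lists were chosen with earlier results of these data known. No mm9 annotation was used, so the planned list of paraspeckle and speckle protein genes was not run.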

Additional observations from a re-analysis of the deposited data

How the results depend on the processing

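Of the alternatives run, those on peak centres inside the stretch, gene limits widened by 1 kb and ties moved no count of peaks by more than 1.5 times, except that 1 OGT peak was centred in Neat1. With a score of at least 100 the stretch held 10 BAP1, 16 HCF1 and 4 OGT peaks, with 1 OGT peak left over each gene, and stitching peaks within 1 kb gave 9 BAP1 and 14 HCF1 blocks. Cover of Malat1 by OGT was 33.4% with that score and 92.2% with widened limits. For Neat1 these values were 64.2% and 65.3% for HCF1 and 30.2% and 35.5% for OGT. Lists of equal length, added after the data were seen, gave 55.6% for HCF1. Overlap counts, in the order centres within 250 bp, reciprocal overlap of 50%, peaks trimmed to 200 bp and score of at least 100, were 6, 7, 5 and 7 for BAP1 by HCF1, 3, 3, 2 and 3 for BAP1 by OGT, 6, 7, 5 and 11 for HCF1 by BAP1, 5, 6, 5 and 4 for HCF1 by OGT, 3, 3, 2 and 3 for OGT by BAP1, and 5, 6, 5 and 4 for OGT by HCF1. The stricter score leaves 10 BAP1, 16 HCF1 and 4 OGT peaks to be overlapped. With equal lengths the counts were 6 of 10 for BAP1 by HCF1 and 7 of 9 for HCF1 by BAP1. They were 6 of 10 for BAP1 by OGT, 6 of 9 for HCF1 by OGT, 10 of 12 for OGT by BAP1 and 9 of 12 for OGT by HCF1. Regions with all 3 proteins numbered 3 under each of those 4 settings and 5 with equal lengths. For these overlap and region counts, no share over the whole lists or the series is given under the same settings. Median percentiles were 84.5, 41.5 and 88.1 for BAP1, HCF1 and OGT with the stricter score, on 10, 16 and 4 peaks, and 83.7, 48.5 and 54.0 when peaks were ranked by width. Median centre distances became 918, 786 and 2602 bp with that score, over 12, 4 and 3 pairs. The upper ends at Malat1 spread over 6880 bp with the stricter score, also added later. No paired analysis was possible because the design has 1 library for each target.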
